A study of Caenorhabditis elegans with 30 samples.

Results

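The nuclear hormone receptor genes of C. elegans were described here across the 4 expression groups and the 2 lists of H4K16ac peaks of the series. They were taken as every gene of the expression table whose public name begins with nhr-, which gave 283 genes of 46170. Of these, 282 had a match in the annotation, 268 as protein-coding genes and 14 as pseudogenes, and nhr-284 had none. The libraries came from whole animals harvested as L3 larvae after 24 h on plates. RNA was sequenced from dpy-21(e428) XX animals (4 libraries), which lack a member of the dosage compensation complex, and from wild-type N2 XX animals (4 libraries). It was also sequenced from XO animals of the strain TY1072, which carry the mutations her-1(e1520) and sdc-2(y74) and develop as hermaphrodites, fed bacteria for mys-1(RNAi) (5 libraries) or carrying the empty vector (5 libraries). H4K16ac, acetylation of lysine 16 on histone H4, was mapped by ChIP-seq with 3 ChIP and 3 input libraries in each of XO and wild-type XX animals; for XO replicates 2 and 3 the study's library list names other strains than the GEO labels, which were followed. The XO RNA libraries came from RNAi plates and the XX ones from the standard bacterial food, so in XO against XX the genotype, the karyotype and the food cannot be told apart. The XO ChIP labels name no RNAi, so XO peaks and XO RNA levels come from animals that may have differed in food.

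The expression table gives 1 mean RPKM (reads scaled by transcript length and by the number of mapped reads) per group, set by the authors, and each peak list was called on pooled libraries. No spread between replicates can therefore be given, no difference below was tested, and the depth of the libraries is not in the files used here. In what follows, a gene was compared where the mean of both groups was above 1 RPKM, and it was called higher or lower where the difference of log2(mean RPKM + 0.1) was at least 1 in size, that is 2-fold. The share over all genes stands beside the counts of members called or carrying a peak, since a share near it says nothing particular about the receptors. RNA came from whole animals, so fewer cells of a type and less RNA per cell cannot be told apart.

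The strain labels were checked on their own genes. The masculinizing gene her-1 stood at 9.66 RPKM in dpy-21(e428) XX, 434 in vector XO and 1.70 in wild-type XX animals. The dpy-21 transcript was at 30.1 RPKM in dpy-21(e428) XX and 29.6 RPKM in wild-type XX animals, so its level does not mark that label. The dosage compensation gene sdc-2 stood at 4.96 RPKM in dpy-21(e428) XX, 0.071 in mys-1(RNAi) XO, 0.051 in vector XO and 4.03 in wild-type XX animals. The mys-1 transcript, which encodes a histone acetyltransferase of the MYST family, was at 51.7 RPKM under the mys-1(RNAi) label and 15.7 RPKM with the vector, that is higher and not lower where the RNAi was applied, so this transcript does not show a depletion. The study reports that the MYS-1 protein fell below what its western blot could detect under this RNAi. It also calls the RNAi depletion incomplete. The summed level of 8 sperm genes was between 0.843 and 1.19 RPKM and that of 6 yolk genes between 0.499 and 1.06 RPKM over the 4 groups. No marker of the germ line (8), intestine (5), body muscle (4) or neurons (5) was called in any comparison, and of the hypodermal ones (4 compared) elt-3 was called higher and rol-6 lower in dpy-21(e428) over wild-type XX animals.

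Nuclear hormone receptors are transcription factors with a DNA-binding domain made of a pair of zinc fingers and a ligand-binding domain that can hold a small lipophilic molecule such as a sterol, a fatty acid or a drug. Many bind DNA through the core element AGGTCA, alone or in pairs. In nematodes the family has expanded greatly from receptors related to vertebrate HNF4, while a small set has clear counterparts in insects and vertebrates, among them the moulting regulators NHR-23 and NHR-25. Known roles in C. elegans include moulting, fat and propionate metabolism, detoxification, neuronal identity and dauer formation.

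The members were unevenly spread over the genome. By chromosome, 174 lay on V, 34 on IV, 25 on I, 25 on X, 16 on II and 8 on III. The 165 protein-coding members on V made up 3.35% of its 4931 protein-coding genes, and on the X they were 24 of 2663 (0.901%). On V they lay 77, 41 and 47 to each of 3 equal stretches of the chromosome from its left end. Of the 268 protein-coding members, 138 stood directly next to another member in the order of protein-coding genes, and 106 of these were on V. Neighbouring members can share sequence or reads, so 20 members with over 10% of their exonic 50-base words elsewhere in the genome are uncertain, 8 of them above 1 RPKM in some group. In addition, 66 members overlapped the exons of another gene, and the libraries did not keep strand, so reads from such pairs cannot be told apart.

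The sequences just upstream of 5 X-linked members are shown. At 4 of them the H4K16ac peaks at the start carry the difference between XO and XX described further on, and nhr-35 is set beside them. The first 4 are the most abundant X-linked members with a promoter peak in XO only whose 250-base window is touched by an XO peak and free of annotated exons, and nhr-35 is the most abundant such member with a peak in both backgrounds. Each window is the 250 bases before the annotated gene start, read 5′ to 3′ on the gene's strand, from the RefSeq genome of build WBcel235. Capitals mark AGGTCA on either strand and, at the very end of a window, a match to TTNCAG, the form of the acceptor to which spliced leaders are joined in C. elegans; a gene start that follows one need not be where transcription begins. The windows are nhr-1 (WBGene00003600) at chrX:17513813-17514062, nhr-91 (WBGene00003681) at chrX:15309119-15309368, nhr-40 (WBGene00003630) at chrX:2593753-2594002, nhr-3 (WBGene00003602) at chrX:14558254-14558503 and nhr-35 (WBGene00003628) at chrX:4532441-4532690, all on the plus strand.
nhr-1: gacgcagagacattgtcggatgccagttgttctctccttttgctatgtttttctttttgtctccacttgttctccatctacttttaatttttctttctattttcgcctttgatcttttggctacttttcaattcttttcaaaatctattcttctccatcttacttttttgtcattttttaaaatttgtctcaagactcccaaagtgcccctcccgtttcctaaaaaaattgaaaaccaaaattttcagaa
nhr-91: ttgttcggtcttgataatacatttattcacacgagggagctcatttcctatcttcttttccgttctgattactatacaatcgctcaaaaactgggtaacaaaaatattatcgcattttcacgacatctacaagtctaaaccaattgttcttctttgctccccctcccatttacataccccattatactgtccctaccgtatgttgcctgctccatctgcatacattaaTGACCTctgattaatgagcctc
nhr-40: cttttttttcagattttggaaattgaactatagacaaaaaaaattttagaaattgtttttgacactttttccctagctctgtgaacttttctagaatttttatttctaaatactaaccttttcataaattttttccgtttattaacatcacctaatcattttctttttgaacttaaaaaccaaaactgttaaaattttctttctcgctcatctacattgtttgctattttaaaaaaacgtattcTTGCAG
nhr-3: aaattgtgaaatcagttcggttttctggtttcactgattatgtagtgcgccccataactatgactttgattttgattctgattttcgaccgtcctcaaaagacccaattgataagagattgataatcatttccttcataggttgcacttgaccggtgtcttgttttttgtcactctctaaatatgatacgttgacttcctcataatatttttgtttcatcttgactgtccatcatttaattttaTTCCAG
nhr-35: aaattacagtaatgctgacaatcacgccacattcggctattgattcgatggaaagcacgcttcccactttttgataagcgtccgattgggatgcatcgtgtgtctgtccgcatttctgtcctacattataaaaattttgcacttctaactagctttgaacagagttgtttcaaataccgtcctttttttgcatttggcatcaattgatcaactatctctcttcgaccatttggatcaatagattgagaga
The XO peaks covered 250, 237, 154, 250 and 250 of the 250 bases in the order printed, and the XX peaks covered 250 bases of the nhr-35 window and none of the other 4. Only the nhr-91 window held the core element, once and on the minus strand, with its first printed base at position -22 from the gene start. The element occurred in 23 of the 268 windows of protein-coding members (8.58%) and in 7.08% of the 19605 windows of all protein-coding genes, so its share among the receptors was close to that of all genes. The nhr-40 and nhr-3 windows ended in the acceptor form. This was so for 9 of 24 X-linked members, 43 of all 268 members, 19.4% of all X-linked protein-coding genes and 19.2% of all protein-coding genes.

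Most receptors were detected, the autosomal ones at low levels by the median. Above 1 RPKM were 187 members in dpy-21(e428) XX, 194 in mys-1(RNAi) XO, 193 in vector XO and 184 in wild-type XX animals. These are 66.1%, 68.6%, 68.2% and 65.0% of the members, near the shares of all protein-coding genes in the same groups, 64.8%, 68.2%, 67.3% and 63.3%. Among genes above 1 RPKM, however, the median level of the members was 6.39, 7.55, 7.18 and 6.05 RPKM in that order, and that of all protein-coding genes 15.2, 15.7, 15.6 and 14.9 RPKM. The X-linked members had medians of 24.8, 16.6, 16.2 and 16.5 RPKM, and the autosomal ones 6.15, 6.60, 6.65 and 5.40 RPKM. In some groups only 25 members passed 1 RPKM, in none 82, and the others did so in all 4. Listed at 0 throughout were 7, namely nhr-75, nhr-111, nhr-223, nhr-257, nhr-259, nhr-278 and nhr-288. One annotated pseudogene, nhr-144 on V, was listed at 28.7, 26.6, 28.2 and 23.6 RPKM.

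A few members stood far above the rest, 28 of 283 having a mean over the 4 groups above 20 RPKM. The most abundant was nhr-97, with 201 RPKM in dpy-21(e428) XX, 148 in mys-1(RNAi) XO, 156 in vector XO and 120 in wild-type XX animals. It was followed by nhr-49, a regulator of fat metabolism and the starvation response, with 72.9, 105, 100 and 63.5 RPKM in the same order. Both XO groups thus stood above both XX groups for nhr-49 but not for nhr-97, which was highest in dpy-21(e428). Next came nhr-114, which links diet to germ line health, with 66.7 RPKM in dpy-21(e428) XX, 46.3 in mys-1(RNAi) XO, 59.8 in vector XO and 131 in wild-type XX animals. The 2 next in rank were nhr-31, known for its role in the excretory cell, at 52.8, 65.6, 57.6 and 51.9 RPKM, and nhr-68, of the propionate response, at 47.0, 32.2, 53.9 and 82.9 RPKM. For nhr-114 and nhr-68 alike the wild-type XX level was the highest and the mys-1(RNAi) level the lowest. The ranks 6 to 15 by mean level went to nhr-41, nhr-46, nhr-1, nhr-91, nhr-23, nhr-40, nhr-88, nhr-85, nhr-14 and nhr-25, so that 5 of the 15 most abundant members were X-linked.

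**Figure D1:**
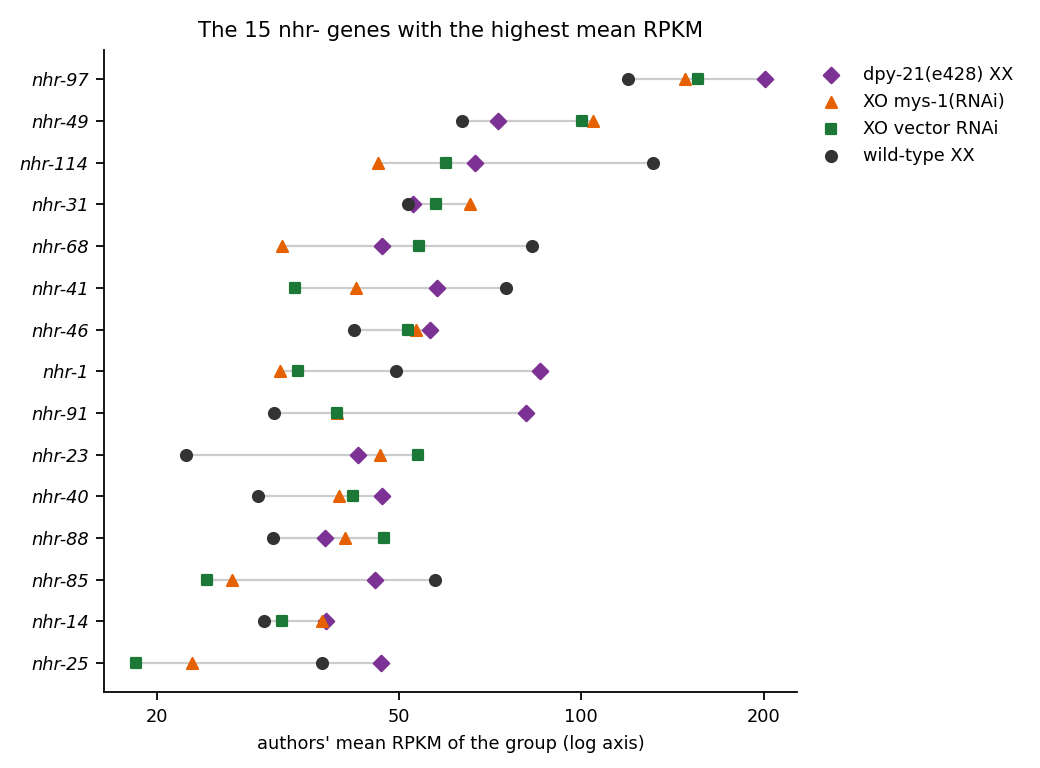
Authors' mean RPKM (log axis) of the 15 nhr- genes with the highest mean over the 4 groups, 1 point per group with no error since the table holds group means. The grey line spans the 4 groups; nhr-114, nhr-68, nhr-41 and nhr-85 have their highest point in wild-type XX, and nhr-97, nhr-46, nhr-1, nhr-91, nhr-40, nhr-14 and nhr-25 in dpy-21(e428) XX.

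The first comparison, dpy-21(e428) XX over wild-type XX animals, concerns loss of a dosage compensation protein. Of 186 members compared, 11 were at least 2-fold higher and 1 was at least 2-fold lower, where 11% and 5.67% of all 14791 genes compared were called, and 8.02% and 3% of protein-coding genes. The 11 higher members are 5.91% of those compared, so the receptors were not called more often than other genes. The median difference was 0.19 on the log2 scale for members and 0.04 for all genes. By chromosome the members split. All 17 X-linked members compared were above 0, with a median of 0.73 and a range of 0.33 to 1.38, beside a median of 0.59 for 2464 X-linked genes, of which 84.4% were above 0. The 168 autosomal members had a median of 0.16, beside -0.01 for autosomal genes.

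Among the X-linked receptors, nhr-91, the counterpart of vertebrate GCNF, stood at 80.9 RPKM in dpy-21(e428) XX, against 31.1 RPKM in wild-type XX, a 2.59-fold difference. The others called were nhr-35, at 35.8 against 16.5 RPKM (2.17-fold), and nhr-120, at 18.9 against 9.30 RPKM (2.02-fold, and 1.93-fold with a pseudocount of 1). In the mys-1(RNAi) and vector XO groups nhr-91 was at 39.6 and 39.6 RPKM, so only dpy-21(e428) stood apart. Below 2-fold were nhr-1, with 85.6 RPKM in dpy-21(e428) XX and 49.4 in wild-type XX (1.73-fold), and nhr-45, with 46.8 and 25.7 RPKM (1.82-fold), both again highest in dpy-21(e428). The smallest differences of the X-linked members compared belonged to nhr-25 (1.25-fold), nhr-14 (1.27-fold) and nhr-33 (1.29-fold), the last of which is now named hizr-1 and encodes a zinc sensor.

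On the autosomes the members called higher in dpy-21(e428) were mostly of low abundance. The largest difference was that of nhr-155 on V, at 7.44 RPKM in dpy-21(e428) XX against 0.702 RPKM in wild-type XX (9.40-fold, and 4.96-fold with a pseudocount of 1). It was followed by nhr-265 on I, at 2.01 against 0.330 RPKM (4.91-fold, and 2.27-fold with a pseudocount of 1), and by nhr-172, at 2.76 against 0.922 RPKM (2.80-fold, not called with a pseudocount of 1). Of these 3, nhr-155 and nhr-172 were higher in dpy-21(e428) than in both XO groups, nhr-155 being at 2.73 and 2.16 RPKM there, whereas nhr-265 was lower than in both. The remaining ones were nhr-147, whose exons overlap those of its neighbour nhr-149 by 323 bp, nhr-112, nhr-7, nhr-18 and nhr-260, at most 2.44-fold higher. The single member called lower was nhr-181 on V, at 0.393 RPKM in dpy-21(e428) XX against 2.47 RPKM in wild-type XX (5.21-fold lower, and -1.32 in place of -2.38 on the log2 scale with a pseudocount of 1). With a pseudocount of 1 the calls were 5 higher and 1 lower, beside 8.7% and 4.63% of all genes. With a minimum of 5 RPKM they were 4 higher and none lower, beside 7.39% and 3.79% of all genes.

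**Figure D2:**
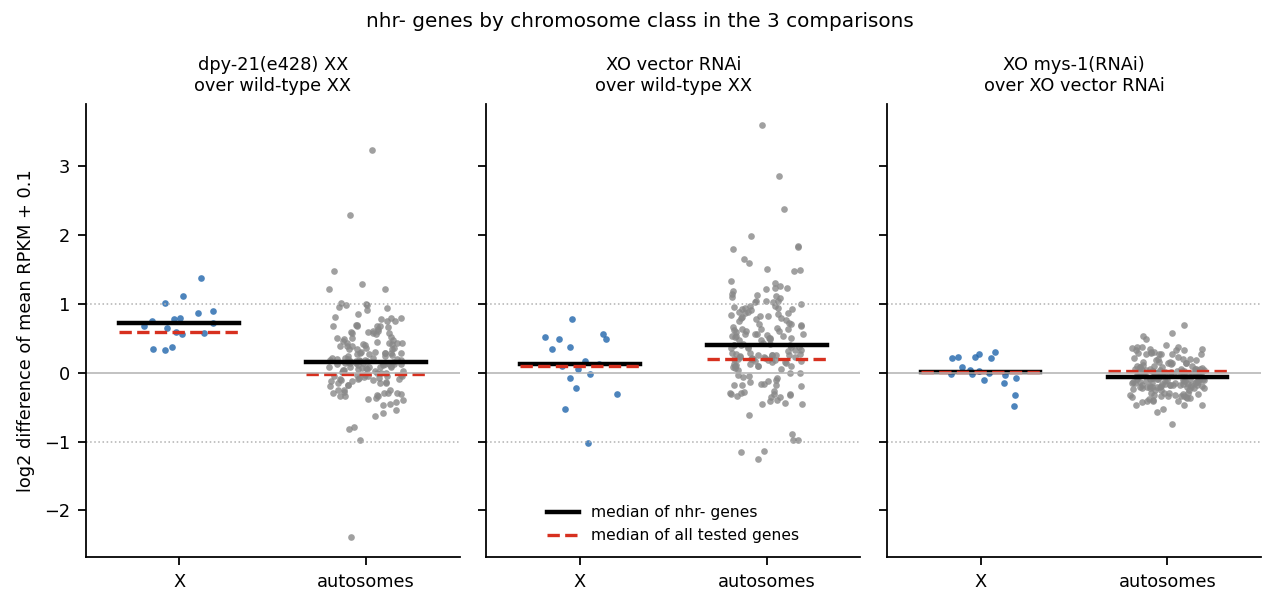
Difference of log2(mean RPKM + 0.1) of each nhr- gene compared, for X-linked and autosomal members in the 3 comparisons; each point is a gene, black lines are medians of the members, dashed red lines medians of all genes compared on the same chromosomes, and dotted lines mark 2-fold. All 17 X-linked members lie above 0 in dpy-21(e428) over wild-type XX, and no member passes 2-fold in mys-1(RNAi) over vector.

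In the second comparison, vector XO over wild-type XX animals, more receptors differed. Of 190 compared, 29 were at least 2-fold higher and 4 at least 2-fold lower, that is 15.3% and 2.11% of the members, where 17.5% and 7.29% of all 15240 genes were called, and 15.3% and 4.82% of protein-coding genes. The share of higher calls was thus the background share. The median over members was 0.38, and over all genes 0.18. The 12635 autosomal genes compared had a median of 0.20. Once this median was set to 0 the calls were 18 higher and 7 lower, beside 14.4% and 9.33% of all genes. All 29 higher calls were autosomal, 17 of them on V. The 29 were 16.9% of the autosomal members compared, beside 17.4% of autosomal genes. The 17 were 14.2% of the members compared on V, beside 23.4% of genes on V. No X-linked member was called higher, beside 18.0% of X-linked genes. Among these 29, nhr-74 and nhr-231 are uncertain, with 59.7% and 32.7% of their 50-base words found elsewhere. The 17 X-linked members compared had a median of 0.13, with 11 above 0, beside 0.10 for X-linked genes; with the autosomal median set to 0 their median was -0.06 and 7 were above 0.

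Of the conserved receptors, 3 were higher in XO. The ROR and DHR3 counterpart nhr-23, needed for every larval moult, was at 53.9 RPKM in vector XO against 22.3 RPKM in wild-type XX animals (2.41-fold), and at 42.8 RPKM in dpy-21(e428) XX and 46.6 RPKM in mys-1(RNAi) XO animals. The tailless counterpart nhr-67, known from uterine and neuronal cell fates, was at 4.82 against 1.52 RPKM (3.03-fold). The NR4A counterpart nhr-6, needed for the spermatheca, was at 15.0 against 5.34 RPKM (2.78-fold), and shares 136 bp of exon with another gene. For nhr-67 and nhr-6 both XX groups were low, with dpy-21(e428) at 1.46 and 4.70 RPKM, and both XO groups high, whereas for nhr-23 only wild-type XX was low.

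Of the 4 members that were lower in XO, 3 are conserved receptors with insect counterparts. The E75 counterpart nhr-85 was at 24.1 RPKM in vector XO against 57.5 RPKM in wild-type XX (2.38-fold lower), although 835 bp of its exons overlap npr-14. The DHR78 counterpart nhr-41 was at 33.8 against 75.3 RPKM (2.22-fold lower). The FTZ-F1 counterpart nhr-25, which acts in moulting and in the epidermis, was at 18.4 against 37.4 RPKM (2.02-fold lower, not called with a pseudocount of 1), and was the only X-linked receptor called. In dpy-21(e428) XX animals nhr-85, nhr-41 and nhr-25 were at 45.7, 57.8 and 46.8 RPKM, so both XX groups were above both XO groups. By distance of log2(RPKM + 0.1) over the 4 group means, each centred on its own mean, nhr-41 and nhr-85 were each the other's nearest among 189 members (distance 0.26). The member nhr-60 lay almost as near nhr-85 (0.27). Both nhr-41 and nhr-85 had been called lower from these same means. Of the 11 conserved receptors 9 were compared, 3 being higher and 3 lower. The others compared were nhr-8 and nhr-48, related to insect DHR96, with log2 differences of -0.31 and -0.07, and nhr-91, at 39.6 against 31.1 RPKM; nhr-239 was at most 1.19 RPKM in any group and nhr-111 was listed at 0.

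Genes of the moult that lie downstream of nhr-23 and nhr-25 did not pass 2-fold in this comparison. The protease gene nas-37 was at 80.1 RPKM in vector XO against 41.2 RPKM in wild-type XX. The matrix gene noah-2 was at 541 against 283 RPKM, the cuticle collagen gene dpy-7 at 374 against 230 RPKM, and mlt-10 at 122 against 181 RPKM, and noah-1 had a log2 difference of 0.81. None of the 5 compared of the 6 was called, and the median difference was 0.81. The muscle genes myo-3, unc-54 and unc-15 also stood higher in XO, 4 muscle markers summing to 2367 RPKM in vector XO against 1270 RPKM in wild-type XX, with hlh-1 at 11.8 against 12.1 RPKM. The stage within the moult cycle was not given, and the part of stage or tissue makeup in these differences was not tested.

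The receptors with the largest differences between XO and XX have no role assigned here and were of low abundance in wild-type XX. The gene nhr-265 on I was at 5.15 RPKM in vector XO against 0.330 RPKM in wild-type XX (12.2-fold, and 4.63-fold with a pseudocount of 1). On V, nhr-260 was at 6.41 against 0.797 RPKM (7.25-fold, and 4.12-fold with a pseudocount of 1), and on IV, nhr-7 was at 12.7 against 2.37 RPKM (5.19-fold). All 3 were also at least 2-fold higher in dpy-21(e428) XX than in the same wild-type XX libraries, at 2.01, 1.70 and 5.64 RPKM, although with a pseudocount of 1 nhr-260 (0.59 on the log2 scale) and nhr-7 (0.98) were not. Next came 5 others, nhr-186, nhr-216, nhr-258, nhr-178 and nhr-53, which lay between 3.16- and 3.99-fold, and between 1.94- and 2.49-fold with a pseudocount of 1. With a pseudocount of 1, 16 members were higher and 3 lower, beside 14.1% and 5.91% of all genes. Above 5 RPKM 10 were higher and 4 lower, beside 12.2% and 5.9% of all genes.

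**Figure D3:**
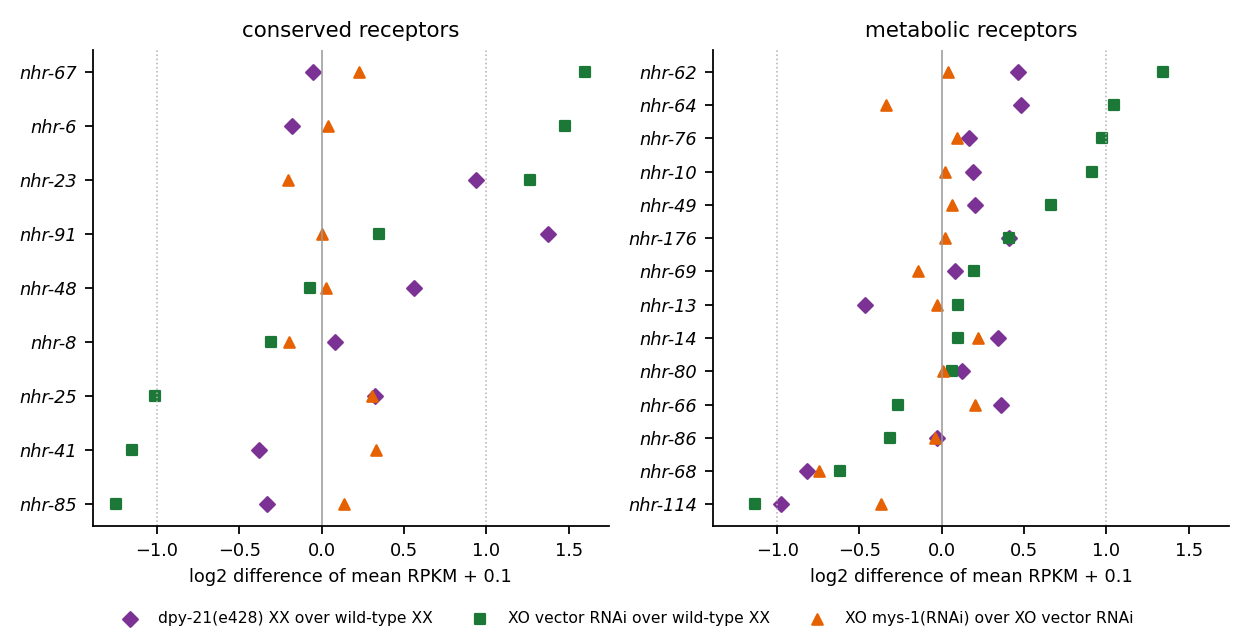
Difference of log2(mean RPKM + 0.1) in the 3 comparisons for the conserved receptors (left) and the receptors with metabolic roles (right) whose mean over the 4 groups was above 1 RPKM; dotted lines mark 2-fold. Among the conserved receptors, nhr-67, nhr-6 and nhr-23 lie above 1 and nhr-25, nhr-41 and nhr-85 below -1 in vector XO over wild-type XX.

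Of the 14 receptors with metabolic roles, all were compared, and in vector XO over wild-type XX 2 were higher and 1 was lower, with a median of 0.15. The lower one was nhr-114, at 59.8 RPKM in vector XO against 131 RPKM in wild-type XX (2.2-fold lower). The higher ones were nhr-62, which acts in dietary restriction, at 6.23 against 2.40 RPKM (2.53-fold), and nhr-64, at 15.6 against 7.49 RPKM (2.06-fold), a call lost with a pseudocount of 1 (0.96 on the log2 scale) and with the autosomal median set to 0 (0.85). Just under 2-fold were nhr-76, at 4.66 against 2.33 RPKM, and nhr-10, of the propionate response, at 33.1 against 17.5 RPKM, while nhr-80, of desaturase control, had a log2 difference of 0.06, or -0.14 with the autosomal median set to 0. In dpy-21(e428) XX over wild-type XX none of the 14 was called, the lowest being nhr-114 at -0.98 and nhr-68 at -0.82 on the log2 scale, and both these comparisons use the same wild-type XX libraries. The member most alike nhr-114 over the 4 group means was nhr-68 (distance 0.38).

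Genes that these receptors act on were set beside them. The acyl-CoA dehydrogenase gene acdh-1, the first step of the propionate shunt and a target of nhr-10 and nhr-68, was at 352 RPKM in dpy-21(e428) XX, 373 in mys-1(RNAi) XO, 596 in vector XO and 1136 in wild-type XX animals, and ech-6 at 287, 339, 395 and 504 RPKM. Of the 5 genes of this list, acdh-1 was the one called, in dpy-21(e428) over wild-type XX, and alh-8 was above its wild-type level in vector XO (642 against 497 RPKM). Of the 7 targets of nhr-49 and nhr-80, acs-2, ech-1.1 and fat-5 were at least 2-fold higher in vector XO. The acyl-CoA synthetase gene acs-2, induced by nhr-49 on starvation, was at 58.4 RPKM in vector XO and 7.35 RPKM in wild-type XX animals, with 40.8 RPKM in mys-1(RNAi) XO and 7.60 RPKM in dpy-21(e428) XX animals. Both XO groups thus stood above both XX groups for acs-2, and the XO genotype and the RNAi food cannot be told apart. The desaturase gene fat-5 was at 5.26, 3.82, 3.07 and 0.752 RPKM in the order dpy-21(e428), mys-1(RNAi), vector and wild-type, wild-type XX standing apart from the other 3 groups.

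Receptors of the family not named nhr- and the makers of a known ligand were also set beside the members. The dauer regulator daf-12 on the X, the receptor of the dafachronic acids, was at 104 RPKM in dpy-21(e428) XX, 67.2 in mys-1(RNAi) XO, 67.3 in vector XO and 59.0 in wild-type XX animals, and in dpy-21(e428) XX only nhr-97 among the members was higher. The enzyme genes daf-9 and daf-36 of dafachronic acid synthesis stood at 9.15 against 7.32 RPKM and 9.44 against 6.66 RPKM in vector XO against wild-type XX. Of the 8 ligand and cofactor genes 7 were compared, and strm-1, whose product modifies sterols, was the 1 called, at 21.6 against 7.32 RPKM. The neuronal receptor gene odr-7 did not exceed 0.248 RPKM in any group.

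In the third comparison, mys-1(RNAi) XO over vector XO animals, no receptor passed 2-fold. Of 192 compared none was called in either direction, where 3.61% of all 15785 genes were called higher and 2.83% lower, and 0.858% and 0.263% of protein-coding genes. The members ranged from -0.74 to 0.69 on the log2 scale, with a median of -0.04 beside 0.03 for all genes. The lowest was nhr-68, at 32.2 RPKM in mys-1(RNAi) against 53.9 RPKM in vector animals (1.67-fold lower). The highest was nhr-205, at 3.24 against 1.97 RPKM (1.62-fold), followed by nhr-142, at 7.74 against 5.14 RPKM. On V, 37.8% of the members compared were above 0 and the median was -0.09, beside 0.04 for 3285 genes of V, and on the X 10 of 18 were above 0 with a median of 0.01. The target acdh-1 was at 373 against 596 RPKM, below 2-fold as well, while acdh-2, of the nhr-49 list, was called lower at 2.08 against 4.65 RPKM.

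The H4K16ac peaks were read at the members next, in the 500 bp upstream of each annotated start (the promoter window) and over the gene body. The XO list held 15186 peaks over 36.4 Mb and the XX list 8734 peaks over 30.6 Mb. Over all protein-coding genes a promoter peak was more common in XO. For the 244 autosomal members it was not, with 71 in XO and 82 in XX, beside 50.4% and 46.9% of autosomal protein-coding genes. Of the 268 protein-coding members, 86 had a promoter peak in XO and 84 in XX, that is 32.1% and 31.3%, where 49.7% and 43.5% of all 19605 protein-coding genes had one. Over the gene body, 113 members had a peak in XO and 102 in XX, beside 60.6% and 50.1% of all genes. Over the whole genome the low share held among genes above 1 RPKM. It was 80 of 187 members in XO (42.8%, all such genes 63.9%) and 79 of 178 in XX (44.4%, all such genes 59%). These shares are not matched by chromosome, and most members lie on V. Above 1 RPKM on V, 33.0% of members had a promoter peak in XO and 48.2% in XX, beside 45.3% and 46.8% of genes. On the X in XO it was 83.3% beside 53.7%. On the X in XX and on the other chromosomes in both backgrounds, the share of members was the lower. The part of chromosome placement was not tested. At or below 1 RPKM, 6 of 81 members had a promoter peak in XO (all such genes 20.4%) and 5 of 90 in XX (all such genes 16.7%). The median level of members with a promoter peak was 11.6 RPKM in vector XO animals, against 2.15 RPKM without one, and in wild-type XX animals 7.34 against 1.55 RPKM. Over all protein-coding genes the contrast was wider, a median of 15.96 against 0.816 RPKM in XO and 14.8 against 0.602 RPKM in XX.

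The chromosomes differed in this respect. On I, 5 of 23 members had a promoter peak in XO and 5 in XX, where 72.1% and 66.3% of all genes on I had one, and 17 of the 23 lay in the right-hand stretch of the chromosome, with a median of 0.063 RPKM and no promoter peak. On IV, 17 of 33 had one in XO and 14 in XX, beside 47% and 44.3% of all genes. On II it was 6 and 6 of 15, beside 49.7% and 46.1%, and on III 3 and 2 of 8, beside 73.8% and 67.8%. On V, 40 of 165 members had a promoter peak in XO and 55 in XX, beside 28.4% and 27.3% of its genes. V was thus the 1 chromosome on which members had more promoter peaks in XX than in XO, against the order of its genes as a whole.

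**Figure D4:**
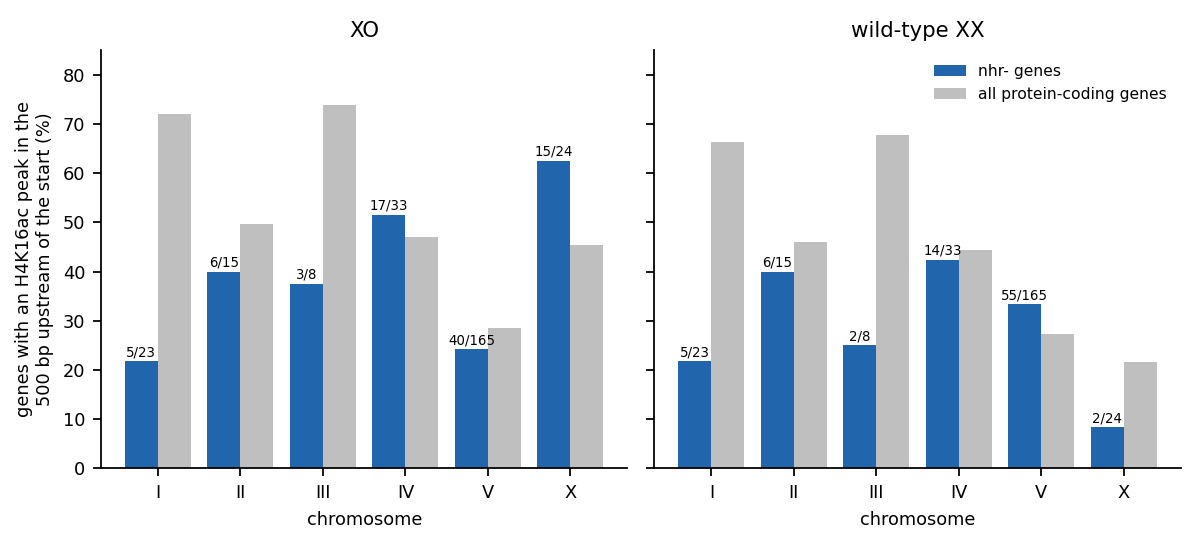
Share of protein-coding nhr- genes (blue, with counts above the bars) and of all protein-coding genes (grey) that have an H4K16ac peak in the 500 bp upstream of the gene start, by chromosome, in XO (left) and wild-type XX (right). On the X the members with a peak are 15 of 24 in XO and 2 of 24 in XX, and on V 40 and 55 of 165.

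The clearest contrast between XO and XX was on the X. Of the 24 protein-coding X-linked members, 15 had a promoter peak in XO, where 45.4% of all 2663 X-linked genes did, and 2 had one in XX, where 21.6% did. It was in XO only for 13, in both for 2 (nhr-35 and nhr-32) and in XX only for none, and over all X-linked genes the shares were 24.6%, 20.8% and 0.789%. Each of the 15 was above 1 RPKM in vector XO, where 18 X-linked members passed that level, so that 83.3% of the members expressed had a peak, beside 53.7% of the X-linked genes expressed. The 3 without one were nhr-25, nhr-137 and nhr-167, and the 6 members under 1 RPKM had none. The 13 XO-only members rested on 13 separate peaks of 487 to 8892 bp, with a median of 4180 bp. With 1000 bp upstream in place of 500 bp, 16 members had a peak in XO and 6 in XX, leaving 10 in XO only. Of all X-linked protein-coding genes 53%, 24.4% and 28.9% did so.

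The extent of the peaks varied from gene to gene. At nhr-1 the XO peak ran from position -7849 to position 1042 bp from the start, and all XO peaks on the gene together covered 66.9% of it. At nhr-3 and nhr-14, an intestinal regulator of iron and immunity genes, XO peaks covered the gene whole, and at nhr-14 the XX peaks covered 29.1% of it without reaching the promoter window. At nhr-91 the XO peak was 939 bp wide with its inner edge at -14 bp, just inside the printed window, and at nhr-40, which acts in muscle, it was 4803 bp wide with its inner edge at -97 bp. At nhr-45 and nhr-28 its inner edge lay at -353 and -404 bp from the start, in the outer part of the promoter window. At nhr-35 the XO and XX peaks at the start were nearly the same, 2370 and 2040 bp wide. All XO peaks on that gene together, however, covered 39.0% of it, and all XX peaks 8.48%. At nhr-32 the XO peak of 7114 bp reached over the whole gene while the XX peak of 3167 bp stopped 553 bp into it. At nhr-25 no peak touched the promoter window or the gene in either background, although its RNA was at 18.4 RPKM in vector XO and 37.4 RPKM in wild-type XX animals.

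**Figure D5:**
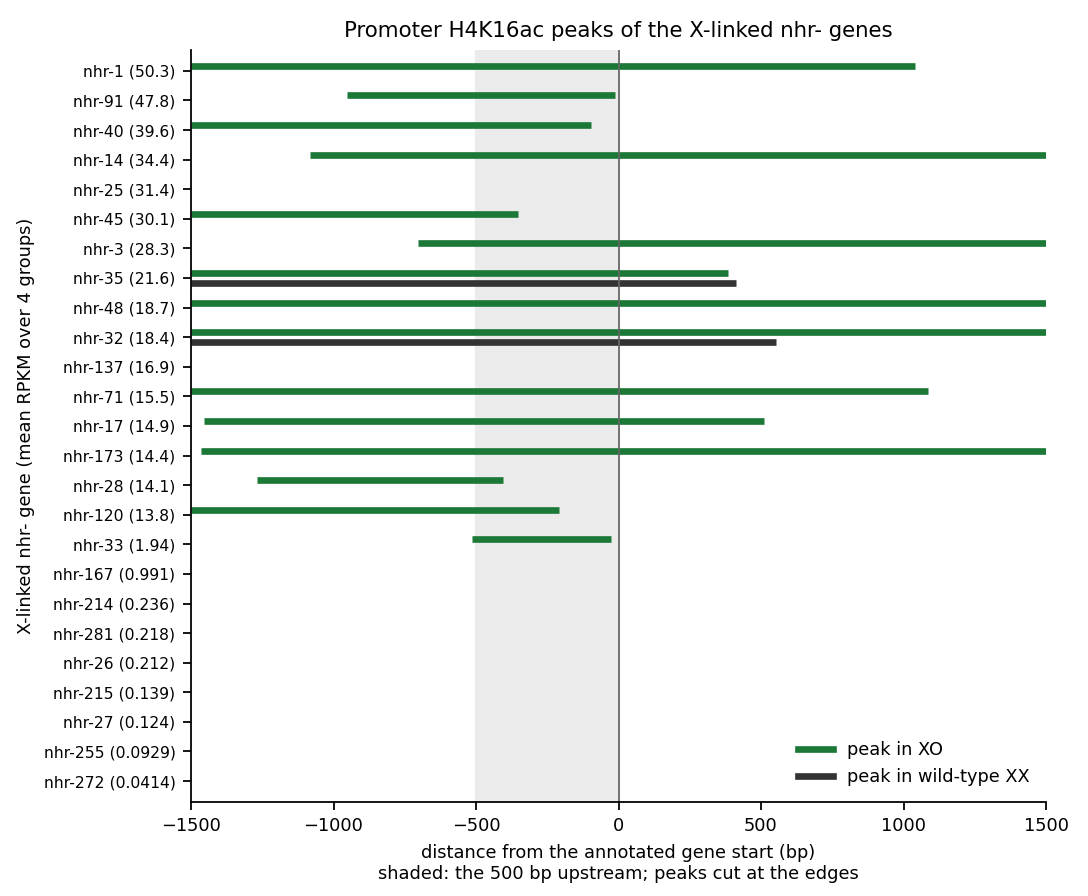
Position of the H4K16ac peaks that touch the 500 bp upstream (shaded) of the 25 X-linked nhr- genes, 1 of them a pseudogene, as distance from the annotated gene start in bp with each gene running to the right; green bars are XO peaks and dark bars wild-type XX peaks, and genes run from the highest mean RPKM over 4 groups (top) to the lowest. A green bar is drawn for 15 genes and a dark one for 2 of these, and no gene under 1 RPKM in the mean carries either.

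The RNA of the 13 members with the XO-only peak was not uniformly higher in XO. Their median difference in vector XO over wild-type XX was 0.35 on the log2 scale, with a range of -0.53 (nhr-1) to 0.78 (nhr-173), and none passed 2-fold. For nhr-1, which carries the widest of these peaks, the level was 34.2 RPKM in vector XO against 49.4 RPKM in wild-type XX, whereas for nhr-120 it was 13.1 against 9.30 RPKM and for nhr-40 42.0 against 29.3 RPKM. Over the 547 X-linked protein-coding genes with an XO-only promoter peak the median was 0.13. In mys-1(RNAi) over vector XO animals the 13 members had a median of 0.001, from -0.49 (nhr-33) to 0.23 (nhr-3). No relation between peak and level was tested, and the XO ChIP labels, unlike the XO RNA labels, name no RNAi.

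On V the one-sided peaks ran the other way. A promoter peak in XX only was found at 19 protein-coding members and one in XO only at 4, where 3.67% and 4.85% of all genes on V did, that is 11.5% and 2.42% of the 165 members. The 19 rested on 19 separate peaks, 11 of the genes lying in the left stretch of the chromosome, and all 19 were above 1 RPKM in wild-type XX, with a median of 5.78 RPKM there and 6.61 RPKM in vector XO. Those above 5 RPKM in wild-type XX were nhr-13, a partner of nhr-49, and nhr-50, nhr-90, nhr-95, nhr-132, nhr-134, nhr-145, nhr-184, nhr-202 and nhr-203. For nhr-90 the level was 14.4 RPKM in vector XO against 8.10 RPKM in wild-type XX animals, and for nhr-132 13.1 against 7.18 RPKM, so the XX-only peak did not go with a higher XX level there. For nhr-145 it was 4.41 against 6.07 RPKM, the other way. Over the 24 autosomal members compared with an XX-only promoter peak, the log2 difference in vector XO over wild-type XX ranged from -0.98 to 1.83. Its median was 0.41. The 4 with an XO-only promoter peak on V were nhr-18, nhr-36, nhr-68 and nhr-177. A one-sided promoter peak need not mean a one-sided gene body. At nhr-18 XO peaks covered 47.8% of the gene and XX peaks 74.8%, and at nhr-184 60.3% and 57.8%. On the other autosomes, members above 5 RPKM with an XO-only promoter peak were nhr-69, nhr-20, nhr-41, nhr-31 and nhr-66, and those with an XX-only one nhr-34 and nhr-4, both on IV. The nhr-41 call rested on 10 bp of overlap and the nhr-34 call on 13 bp. Both genes had peaks over the gene body in both backgrounds. Under a requirement of 250 bp of overlap, the counts on V were 14 in XX only and 3 in XO only, beside 4.02% and 3.79% of its genes.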

How the data were processed

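RNA-seq and H4K16ac ChIP-seq of L3 animals were used as deposited. Per the labels and methods, the authors trimmed RNA reads with Trim Galore, aligned them with TopHat2 2.0.13 and took RPKM from Cufflinks 2.2.1; the deposited table holds 1 RPKM mean per group, over 4 or 5 libraries, from kits that do not keep strand. ChIP reads went through Trim Galore 0.3.7, Bowtie 1.1.1 and MACS2 2.1.0 broad peaks on pooled replicates, and the deposited lists hold peak positions without heights. A further deposited table holds the authors' fold changes and adjusted p-values from DESeq2 and was not used. No columns of other samples were present.

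From these, differences of log2(mean RPKM + 0.1) were taken among genes with a mean above 1 RPKM over the groups compared and called at 2-fold. The means carry no replicate error, so no test was made here, and depth is not given in the files used here, so precision cannot be stated. Peaks were intersected, by at least 1 bp, with the 500 bp upstream of gene starts and with gene bodies of Ensembl release 115 (WBcel235, equivalent to the WS235 build of the alignments; every peak lies within its chromosome lengths); 282 of 283 names matched by WormBase gene ID. Calculations used Python 3.11.15, pandas 2.3.3 and NumPy 2.4.6, and the calling and overlap steps were tested on simulated data. The members and gene lists were chosen with earlier results of these data known. Named are the 15 members with the highest mean, up to 8 per direction and comparison among those called, the conserved and metabolic lists, X-linked members above 1 RPKM, and members above 5 RPKM with a promoter peak in 1 background; nhr-205 and nhr-142, the members with the highest values in the RNAi comparison, and the pseudogene and the genes listed at 0 were named after their values were seen. Of 6 intestine markers 5 were found. Alternatives to the pseudocount, the filter, the scaling, the fold, the promoter window, the peak width and the overlap were computed. A planned grouping of the members by protein sequence was not run.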

Additional observations from a re-analysis of the deposited data

How the results depend on the processing

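Since the expression values are group means and the peaks were called on pooled libraries, leaving out single replicates was not run. No paired analysis was possible because the files used hold no value per replicate. The counts of members called moved with the choices on low values, as follows, with higher and lower calls after each total. In dpy-21(e428) XX over wild-type XX the 12 calls (11 and 1) became 6 (5 and 1) with a pseudocount of 1, 23 (18 and 5) with no filter, 4 (4 and 0) above 5 RPKM and 49 (44 and 5) at 1.5-fold. Of all genes compared 16.6% were called, and then 13.3%, 20.5%, 11.2% and 31% in that order. In vector XO over wild-type XX the 33 calls (29 and 4) became 19 (16 and 3), 52 (45 and 7), 14 (10 and 4) and 76 (68 and 8) in the same order, and 18 and 7 with the autosomal median set to 0. Of all genes compared 24.8% were called, and then 20%, 29.5%, 18.1% and 41% in the same order. With the autosomal median set to 0, 14.4% of all genes were called higher and 9.33% lower. In mys-1(RNAi) over vector XO the count of 0 became 2 (2 and 0) with no filter and 2 (1 and 1) at 1.5-fold. Of all genes compared 6.44% were called, 10.7% with no filter and 12% at 1.5-fold. Above 5 RPKM there were 121 members in dpy-21(e428) XX, 126 in mys-1(RNAi) XO and 107 in wild-type XX, in place of 187, 194 and 184. Of all protein-coding genes 49.9%, 52.8% and 48.4% were above 5 RPKM in these groups. A peak over at least 50% of the gene was found at 57 members in XO and 49 in XX, in place of 113 and 102, beside 39.3% and 34.8% of all protein-coding genes. On the X 6 members had a promoter peak in XX with 1000 bp upstream, in place of 2, beside 24.4% of X-linked protein-coding genes. The other promoter counts, for all members, X and V, stayed within 1.5 times under windows of 250 and 1000 bp, peaks of at least 500 bp and an overlap of at least 250 bp. No member called at 2-fold changed direction under any of these alternatives, while with the autosomal median set to 0 the sign changed for 2, 25 and 15 of the members compared in the 3 comparisons, in that order, the largest difference among these being 0.19 on the log2 scale, and nhr-80, nhr-14, nhr-35, nhr-13 and nhr-31 are among the 25; 20 calls were lost with a pseudocount of 1 and 11 with the autosomal median set to 0. The causes were not tested.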
